A study of Mus musculus with 3 samples.

Results

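The genes described here encode the secreted and membrane metalloproteases and their inhibitors. Members were chosen by name from the genes that the cell table and the nucleus table share: every symbol that starts with Mmp, Adam or Adamts and a number, and Timp1 to Timp4. The rule took 67 of 21507 shared genes, of which 21 were matrix metalloproteases (Mmp), 4 were tissue inhibitors (Timp), 23 were Adam genes and 19 were Adamts genes. Adam30 and Adam6b were in the cell table alone and Adam39 in the nucleus table alone, and these 3 were not analysed here.

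The study compared 2 ways of preparing mouse lung for droplet RNA sequencing (10x Chromium). A single library of whole cells came from fresh lung of wild type C57Bl/6J mice, digested with collagenase and DNAse, broken up mechanically and cleaned on a density gradient. A pair of nucleus libraries came from lung of adult wild type C57Bl/6J mice that was snap frozen and later opened in a lysis buffer, so these nuclei never passed through the warm digestion. No animal carried an allele or received a treatment by the labels, which do not name separate animals and give the age (adult) for the nuclei alone. The p-values below therefore rest on the spread between the 2 nucleus libraries alone, and assume that the lone cell library would vary as they do.

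The cell library held 11934 barcodes and the nucleus libraries 6849 and 9806, with 27148272 to 35962788 counts a library and medians of 2521 to 4152 counts a barcode. The most detected genes in a barcode were 2499 in cells, 2499 in nuclei 1 and 2999 in nuclei 2, and the part of this difference in any result was not tested. The libraries shared 21 to 24 barcodes in pairs. With counts scaled to a common library total (CPM), Xist stood at 285 CPM in cells and at 1023 and 9.61 CPM in nuclei 1 and 2, and the Y-linked Uty at 1.03, 0.927 and 269 CPM, so by these transcripts nuclei 1 came from female and nuclei 2 from male tissue. The cells had Xist with little Uty, as nuclei 1 had, so by the same reading they came from female tissue. The spread between the nucleus libraries thus includes a difference between animals and sexes, as does the difference of the cells from nuclei 2. The part of this in any result was not tested. Clusters were named from fixed marker lists that hold no member, and members were left out of the clustering, so every class name below means "-like". In all, 16 classes had at least 50 barcodes in each library. Monocyte, neutrophil, natural killer (NK), ILC2 and plasmacytoid dendritic classes were named in cells alone, and club and arterial classes in nuclei alone. General capillary, type 2 alveolar (AT2) and alveolar fibroblast nuclei each formed 2 clusters that mostly separated nuclei 1 from nuclei 2. Markers of more than 1 lineage were carried by 233 cells, and 218 nuclei led by Adgre4 stayed unnamed. At a finer clustering (Leiden resolution 2) 701 cells were in such mixed clusters. These included pericyte with AT2 (152 cells), non-classical monocyte with T (207) and alveolar fibroblast with non-classical monocyte (104). Mixed barcodes may thus remain in the named classes of cells, and their part in any result was not tested. Interstitial macrophage nuclei were led by F13a1, which is also on the classical monocyte list.

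Matrix metalloproteases cut collagens, elastin and other matrix proteins, and most are made as inactive precursors. Adam proteins are membrane proteases, or relatives that have lost the protease site, that release growth factors, cytokines and receptors from the cell surface, while the secreted Adamts enzymes act on proteoglycans, procollagens and von Willebrand factor. Timp proteins bind and block the active site of these enzymes, and in lung the balance is studied in emphysema, fibrosis and alveolar repair.

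Levels across classes are given first as plain CPM, a gene's share of all counts summed over a class in 1 library, with the cell value before nuclei 1 and nuclei 2. They are descriptions without a test, because the classes were made from the same barcodes. At least 20 CPM in some class was reached by 52 members, namely 15 Mmp, 4 Timp, 19 Adam and 14 Adamts genes, and 25 reached 100 CPM in at least 2 libraries. The leading class among the 16 common ones was the same in all 3 libraries for 21 of the 52. The heat map of levels shows 27 of them, the 25 just counted with Timp1 and Timp4.

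**Figure D1:**
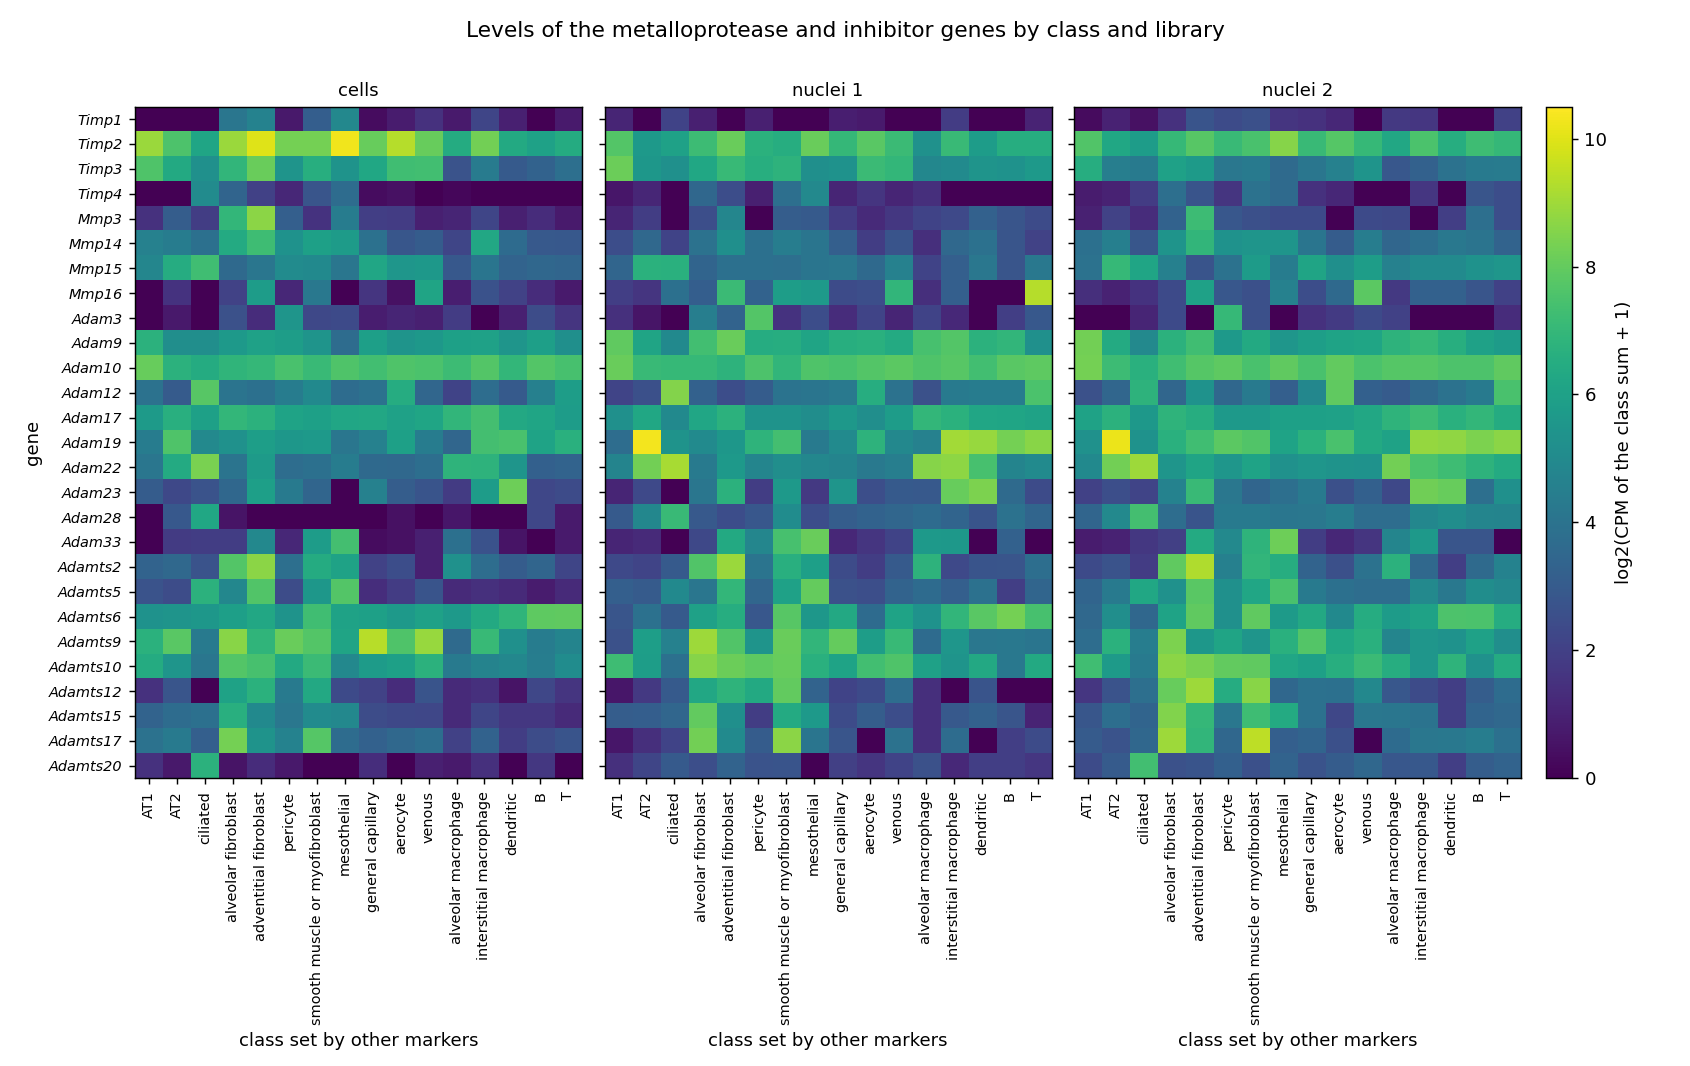
Levels of 27 members in the 16 classes present in all libraries. Rows are genes, columns are classes, the 3 panels are the cell library and the nucleus libraries, and colour is log2 of the CPM of the class sum plus 1. Timp2 and Adam10 are coloured in every class, while Adam3 stands out in pericytes, Adam33 in mesothelial barcodes and Adam19 in AT2 nuclei.

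Of the inhibitors, Timp2, which also takes part in activating pro-Mmp2, was led by mesothelial barcodes in all 3 libraries. Its mesothelial level was 1225 CPM in cells and 276 and 383 CPM in nuclei. Adventitial fibroblasts followed with 1022 CPM in cells and 270 and 216 CPM in nuclei, and aerocytes had 636, 225 and 212 CPM. Its lowest levels among the common classes were in B cells for cells (64.2 CPM), alveolar macrophages for nuclei 1 (38.4 CPM) and ciliated barcodes for nuclei 2 (54.4 CPM), so it was detected in every class. The order of the 3 top classes was the same in cells and both nucleus libraries.

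Timp3, a matrix-bound inhibitor that also blocks several Adam and Adamts enzymes, had its highest levels in different places. In type 1 alveolar (AT1) barcodes it reached 193 CPM in cells and 281 and 91.7 CPM in nuclei. In adventitial fibroblasts it reached 273, 133 and 51.1 CPM, and in aerocytes 155, 140 and 23.4 CPM. Nuclei 2 lay below nuclei 1 in each of these 3 classes, and the cells lay on either side of nuclei 1. Timp1, the inhibitor induced in injury, was low everywhere: its top levels were 28.6 CPM in mesothelial cells, 24.2 CPM in adventitial fibroblast cells and 16.4 CPM in alveolar fibroblast cells, while no class of nuclei passed 5.68 CPM, which was a single count. Timp4 reached 32.4 CPM in ciliated cells, from 12 counts, but 0 and 2.66 CPM in ciliated nuclei. It was steadier in mesothelial barcodes at 12.3, 29.9 and 11.2 CPM.

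Several matrix metalloproteases were led by adventitial fibroblasts in all 3 libraries. These were Mmp2, which cuts basement membrane collagen (239, 64.0 and 62.5 CPM), Mmp3, or stromelysin-1 (407, 27.4 and 148 CPM), Mmp14, a membrane-bound activator of pro-Mmp2 (151, 36.6 and 119 CPM), and Mmp23 (87.8, 13.7 and 85.2 CPM). The nucleus values rest on 54 and 55 barcodes, with 6 and 26 counts of Mmp3. Alveolar fibroblasts came next for Mmp2 (108, 20.7 and 40.3 CPM) and in cells for Mmp3 (122, 4.67 and 8.96 CPM). Mmp2, Mmp3 and Mmp14 thus shared a leading class with the inhibitor-rich adventitial fibroblasts.

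In cells, the macrophage and neutrophil members were highest in different classes. Mmp12, the macrophage elastase, was led by interstitial macrophages with 160 CPM in cells and 53.3 and 23.4 CPM in nuclei, and alveolar macrophages followed with 37.6, 10.0 and 8.53 CPM. Mmp13, a collagenase, had the same leading class among the 16 at 37.4, 10.7 and 2.13 CPM. Mmp19 stood at 109 CPM in alveolar macrophage cells, from 783 counts in 577 of 2197 cells, and at 0 and 6.20 CPM in the nuclei of that class. Mmp9, or gelatinase B, stood at 228 CPM in neutrophils, which were named in cells alone, and Mmp8, the neutrophil collagenase, at 55.3 CPM there and at 45.3 CPM in classical monocytes. These granule proteins are made by neutrophils, and no neutrophil class was found in nuclei.

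Other matrix metalloproteases had their highest levels in endothelial, epithelial and other classes. Mmp28 was led by venous barcodes in all 3 libraries (41.5, 114 and 62.6 CPM), with general capillaries next (32.4, 104 and 55.2 CPM). Mmp15, a membrane-type enzyme, stood at 154, 102 and 71.5 CPM in ciliated and at 88.7, 103 and 130 CPM in AT2 barcodes. Mmp11 reached 22.0, 21.7 and 54.5 CPM in AT1 and 27.7 CPM in alveolar fibroblast cells. Mmp16, another membrane-type enzyme, was led by venous barcodes in cells and nuclei 2 (69.1, 121 and 227 CPM). In T-class nuclei it differed sharply between the nucleus libraries, with 637 CPM in nuclei 1 against 3.05 CPM in nuclei 2 and 0.704 CPM in T cells. The 592 counts in nuclei 1 came from 84 of 322 T nuclei with at most 37 in a single nucleus, against 2 of 402 T nuclei in nuclei 2. The ILC2 markers summed to 290 CPM in these T nuclei of nuclei 1, to 215 CPM in nuclei 2 and to 198 CPM in T cells, with 5 or 6 of 7 detected and Il13 at 0 in all 3. At a finer clustering (Leiden resolution 2) a cluster of 60 nuclei, named T from its markers, had Dach2, Mmp16, Ctnna2, Cntn1, 1700113H08Rik, Il1rl1 and Stab2 among its leading genes, and all of these but Mmp16 were also among the leading genes of the ILC2 cluster of cells. Mmp17 and Mmp25 stayed under 31 CPM, with Mmp25 highest in dendritic cells (30.2 CPM).

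Mmp13, Mmp12, Mmp1b, Mmp3, Mmp10, Mmp8, Mmp27 and Mmp20 lie side by side on chromosome 9, from 7272514 to 7674979 in the GRCm38 annotation. Mmp12 and Mmp1b overlap on opposite strands by 1261 bases. Promoter windows of 250 bases before to 50 after the start (RefSeq, GRCm38.p6) were found for 42 of the 67 members. The bases just before the start of 5 genes of this cluster are shown because Mmp3, Mmp12, Mmp13 and Mmp8 were each higher in cells than in nuclei within a class, as given further on, while Mmp10 was too low to test. The letters TGANTCA, the core bound by AP-1 factors, which read the same on both strands, are in capitals.
Mmp3 (chr9:7445762-7445821, plus strand): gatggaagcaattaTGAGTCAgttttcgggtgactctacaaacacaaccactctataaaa
Mmp12 (chr9:7347314-7347373, plus strand): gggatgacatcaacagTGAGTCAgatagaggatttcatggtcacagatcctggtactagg
Mmp13 (chr9:7272454-7272513, plus strand): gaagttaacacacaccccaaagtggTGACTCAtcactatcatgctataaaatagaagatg
Mmp10 (chr9:7502282-7502341, plus strand): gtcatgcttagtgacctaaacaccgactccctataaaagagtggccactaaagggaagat
Mmp8 (chr9:7558369-7558428, plus strand): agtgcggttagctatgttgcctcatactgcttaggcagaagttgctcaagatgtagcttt
The letters begin 46 bases before the start in Mmp3, 44 in Mmp12 and 35 in Mmp13, and 63 bases before it in Mmp10, outside the stretch shown. Mmp12 had 2 windows, and the letters were found in 1 of them. The stretch shown for Mmp12 lies inside the gene as annotated in GRCm38 (7344381 to 7369499). They were not found in the window of Mmp8. By window, 9 of 46 member windows held them, against 7.81% of all 32851 windows. By gene, 9 of the 42 members with a window held them, against 8.97% of all 27025 genes. The other 5 were Mmp1b, Mmp20, Adam29, Adam1b and Adam19. Of these, Adam1b and Adam19 were among the genes lower in cells over whole libraries. A match of letters is a description and does not show that a factor binds there.

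Among the Adam genes, the main sheddases were broad. Adam10, which cleaves Notch receptors, lay between 86.4 and 270 CPM over the common classes in cells, between 110 and 273 CPM in nuclei 1 and between 100 and 319 CPM in nuclei 2, and AT1 led each time. Adam17, which releases Tnf and Egfr ligands, ranged from 51.4 CPM in AT1 to 164 CPM in interstitial macrophages in cells. In nuclei it ranged from 30.5 CPM in ciliated to 124 CPM in alveolar macrophage barcodes in nuclei 1, and from 47.9 CPM to 147 CPM in the same ciliated class and in interstitial macrophages in nuclei 2. Macrophages were thus at the top for Adam17 in all 3 libraries. Adam9 was highest in AT1 (106, 242 and 303 CPM) and, in nuclei 1, in adventitial fibroblasts (63.6, 274 and 153 CPM).

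Other Adam genes were concentrated in 1 or a few classes. Adam19 was led by AT2 in all 3 libraries, at 193 CPM in cells and 1261 and 1172 CPM in nuclei, followed in nuclei by interstitial macrophages (166, 522 and 454 CPM). Adam22, a relative without protease activity, was led by ciliated barcodes (332, 558 and 504 CPM) and was also found in alveolar macrophages (113, 383 and 309 CPM). Adam33, a gene studied in asthma, was led by mesothelial barcodes (163, 276 and 288 CPM), with smooth muscle or myofibroblasts next (54.2, 175 and 111 CPM). Adam23, also without protease activity, was high in dendritic barcodes (287, 348 and 269 CPM). It stood at 55.2, 262 and 298 CPM in interstitial macrophages and at 328 and 18.2 CPM in the arterial nuclei of nuclei 1 and 2. Adam12 changed its leading place with the library: ciliated barcodes had 216, 372 and 108 CPM, aerocytes 89.8, 92.5 and 241 CPM, T barcodes 56.4, 185 and 178 CPM, and lymphatic barcodes 273 CPM in cells and 438 CPM in nuclei 2. Adam28 was highest in club nuclei (157 and 200 CPM) and ciliated barcodes (75.6, 139 and 164 CPM). The club name rests on 3 of 8 markers, and the 8 summed to 21770 and 25487 CPM in these nuclei against 25649 and 31234 CPM in B nuclei, so the summed markers do not set this class apart. In the ciliated class of cells all 8 club markers were detected and summed to 7946 CPM, against 611 to 3591 CPM in the other classes of cells. Club was also the second-best name of that ciliated cluster. The part of this in the ciliated levels and comparisons was not tested.

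Adam15 was led by venous barcodes in all 3 libraries (184, 51.8 and 70.9 CPM), and Adam8, a leukocyte member, by neutrophils in cells (157 CPM), followed by dendritic barcodes (110, 59.9 and 65.9 CPM), which in nuclei 2 stood beside interstitial macrophages (68.2 CPM). Adam7 was found in AT2 (10.9, 47.9 and 37.6 CPM) and Adam32 in AT1 nuclei (11, 53.8 and 59.1 CPM). Adam1a passed 50 CPM in AT2 nuclei (53.1 and 55.0 CPM). Adam1a and Adam1b are paralogs, and how the counting treated reads matching both was not tested.

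Adam3 and Adam18, known mainly from testis, were led by pericytes in all 3 libraries. The Adam3 level there was 44.0 CPM in cells and 204 and 128 CPM in nuclei, against at most 21.3 CPM in any other class. The Adam18 level was 5.03, 45.0 and 18.9 CPM. In the GRCm38 annotation these are neighbours on the minus strand of chromosome 8 in the order Adam18 (24602246 to 24674755), Adam3 (24677225 to 24725852), Adam5 (24727093 to 24824369), Adam32 (24836140 to 24948804) and Adam9 (24949611 to 25016927), with 2469 bases between Adam18 and Adam3. Adam5, next to Adam3, was at 5.40 CPM in pericytes of nuclei 1, and its highest level was 22.7 CPM, from 4 counts, in adventitial fibroblasts of nuclei 2. Adam2 and Adam11 reached 20.6 and 30.4 CPM in lymphatic and plasmacytoid dendritic cells on 4 and 7 counts.

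The Adamts genes were mostly stromal. Adamts2, a procollagen processing enzyme, was led by adventitial fibroblasts (404, 485 and 608 CPM), followed by alveolar fibroblasts (208, 202 and 247 CPM), in all 3 libraries. Adamts10 (206, 383 and 410 CPM) and Adamts15 (97.3, 251 and 361 CPM) were led by alveolar fibroblasts throughout. Adamts17 was shared by alveolar fibroblasts (319, 304 and 492 CPM) and smooth muscle or myofibroblasts (213, 409 and 701 CPM), and Adamts12 by adventitial fibroblasts (105, 114 and 494 CPM) and smooth muscle or myofibroblasts (79.4, 250 and 392 CPM). Adamts5, an aggrecan- and versican-cutting enzyme, was highest in mesothelial (204, 260 and 180 CPM) and adventitial barcodes (201, 123 and 222 CPM). Adamts3 was at 34.8, 215 and 39.8 CPM in adventitial fibroblasts and at 26.4, 97.2 and 73.6 CPM in pericytes, and Adamts8 at 45.5 CPM in alveolar fibroblast cells and 39.2 and 35.9 CPM in AT2 nuclei.

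The remaining Adamts genes had high levels in endothelial, muscle, fibroblast, airway and lymphoid classes. Adamts9 was highest in general capillaries in cells (669 CPM, against 259 and 204 CPM in nuclei) and in alveolar fibroblasts in nuclei (399, 501 and 341 CPM). Adamts1, a versican-cutting enzyme, stood at 362, 78.8 and 29.0 CPM in smooth muscle or myofibroblasts and at 323, 14.7 and 33.7 CPM in general capillaries. Adamts4, another aggrecanase, reached 75.6 CPM in smooth muscle or myofibroblast cells and 56.4 CPM in alveolar fibroblast cells, and no nuclei class passed 3.38 CPM. Adamts6 was high in B cells (237, 311 and 185 CPM) and T cells (247 and 175 CPM in cells and nuclei 1), and in nuclei also in smooth muscle or myofibroblasts (220 and 247 CPM). Adamts14 was high in NK cells (118 CPM) and in pericytes of nuclei 1 (90.9 CPM, against 12.6 CPM in nuclei 2), and Adamts20 in ciliated barcodes of cells and nuclei 2 (105 and 157 CPM, against 6.77 CPM in nuclei 1).

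The other 15 members (Adam1b, Adam21, Adam29, Adam34, Adamts7, Adamts13, Adamts16, Adamts18, Adamts19, Mmp1b, Mmp10, Mmp20, Mmp21, Mmp24 and Mmp27) reached 20 CPM in no class. The highest level among them was 18.3 CPM, for Adamts19 in adventitial fibroblasts of nuclei 1 on 4 counts. Adam1b had 15.3 and 11.04 CPM in AT2 nuclei on 90 and 44 counts.

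Shares of barcodes with a count were compared after every barcode was thinned to 1000 counts. Timp2 was detected in 56.1% of 221 adventitial fibroblast cells (exact 95% interval 49.3 to 62.8%), against 9.06% of 563 T cells, with medians of 2882 and 2332 counts a cell before thinning. The share in adventitial nuclei was 20.4% of 54 and 16.4% of 55 barcodes. Mmp3 was detected in 19.0% of the same adventitial cells and in 0 of 563 T cells, which allows up to 0.533% of T cells with a count at this depth and sets no limit on cells that express the gene. Mmp12 was found in 11.4% of 175 interstitial macrophage cells against 0.178% of T cells, and Mmp9 in 19.0% of 158 neutrophils against 0 of 563 T cells. Adam19 was found in 61.7% of 1346 and 59.9% of 1587 AT2 nuclei but in 15.9% of 483 AT2 cells, where T cells gave 9.06% and T nuclei 26.7 and 24.3%. Adamts9 was found in 36.7% of 1396 general capillary cells and in 18.1% and 14.2% of the nuclei, with T cells at 1.95%. Before thinning the first-named shares were 86.9% for Timp2, 30.8% for Mmp3, 21.7% for Mmp12, 39.9% for Mmp9, 90.5 and 78.6% for Adam19 nuclei and 60.03% for Adamts9. In nuclei 2, 28 of the AT2 nuclei, 36 of the T nuclei and 3 of the general capillary nuclei were too shallow and were left out. The intervals and limits cover counting error only.

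Cells and nuclei were then compared over whole libraries, on CPM scaled by the trimmed mean of M-values (TMM), here called scaled CPM, with edgeR's quasi-likelihood test over all genes. Of the 67 members, 65 had enough counts for the test (Adam29 and Mmp10 had not), and 16 passed an adjusted p of 0.05, 10 higher in cells and 6 lower. Of all 19806 genes tested 24.9% passed, 16.4% higher and 8.42% lower, so the members' share was near the background. The median log2 fold of the tested members was -0.25, against -0.03 over all genes. Without TMM, the median of all genes moved to -0.20 and the split of called members to 7 higher and 7 lower, with Adam8, Mmp9 and Mmp25 no longer passing. In whole libraries, fewer cells of a type and less RNA per cell cannot be told apart.

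By family, 6 of 20 tested Mmp genes were higher and none lower, 0 of 4 Timp genes passed, 2 of 22 Adam genes were higher and 5 lower, and 2 of 19 Adamts genes were higher and 1 lower, beside 16.4% higher and 8.42% lower over all genes. The median log2 fold was 0.69 for Mmp, 0.54 for Timp, -0.92 for Adam and -0.997 for Adamts genes. For the Timp genes, 1 had an unadjusted p under 0.05 in edgeR, and DESeq2 also called 0.

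**Figure D2:**
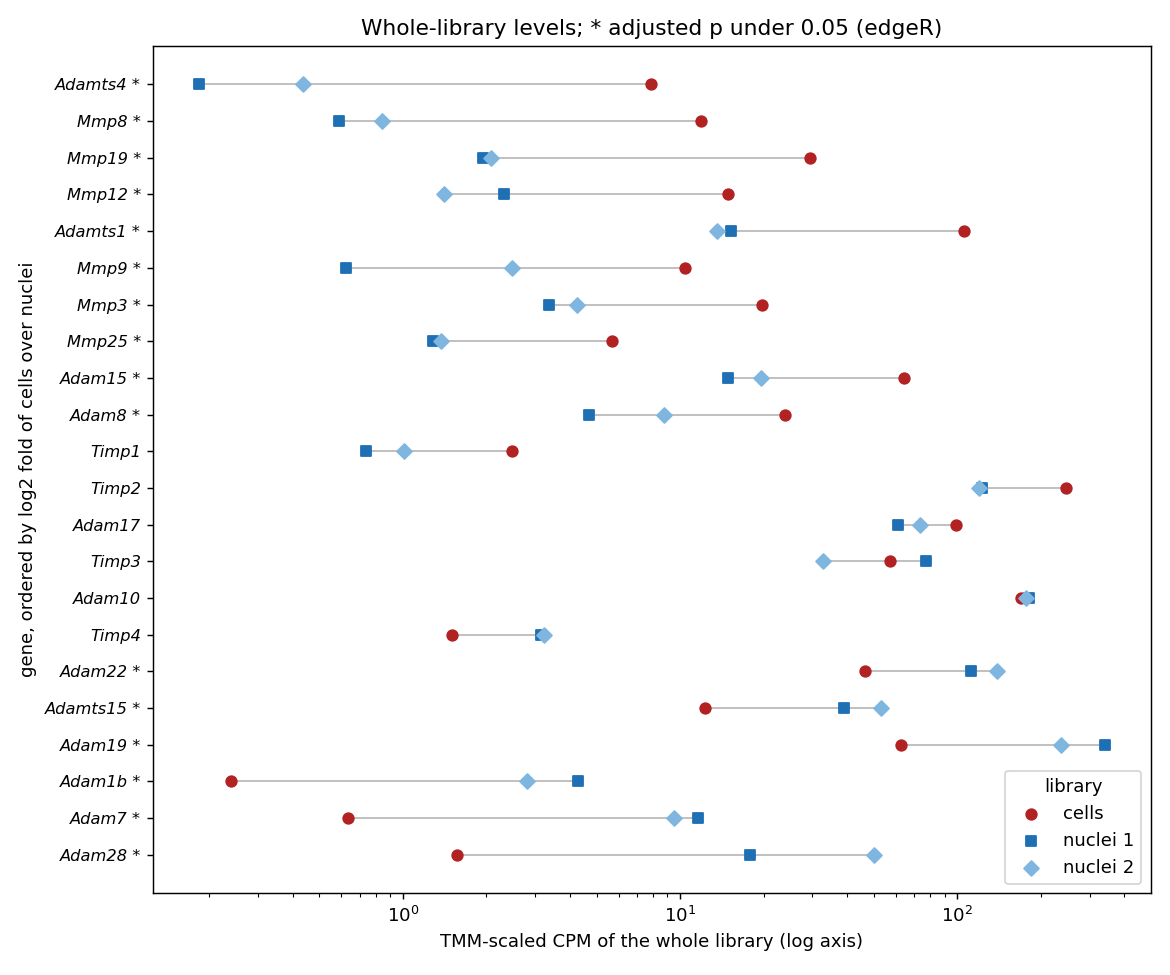
Whole-library levels of the 16 members that passed and of the Timp genes, Adam10 and Adam17. Each row is a gene, ordered by log2 fold, the points are the cell library and the nucleus libraries, and the axis is scaled CPM on a log scale; asterisks mark an adjusted p under 0.05. Adamts1 lies at 105 in cells and at 15.3 and 13.6 in nuclei, while Adam19 lies at 62.6 in cells and at 341 and 237 in nuclei.

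Mmp19 had 29.5 scaled CPM in cells and 1.95 and 2.08 in nuclei, a log2 fold of 3.87 (SE 0.38, adjusted p = 0.0044). Mmp8 had 11.9 against 0.587 and 0.838 (log2 fold 4.05), and Mmp12 14.9 against 2.31 and 1.41 (log2 fold 3.003). Mmp3 had 19.7 against 3.38 and 4.26 (log2 fold 2.37) and Mmp25 5.69 against 1.28 and 1.37 (log2 fold 2.09). For each of these macrophage, neutrophil, dendritic and fibroblast genes both nucleus libraries lay below the cells. Mmp9 had 10.4 against 0.624 and 2.48, with a log2 fold of 2.74 that was 2.06 without nuclei 1 and 4.04 without nuclei 2. The share of barcodes in the neutrophil class was 1.32% of cells and 0 in nuclei, and that of alveolar macrophages 18.4% of cells against 2.26% and 4.48% of nuclei 1 and 2.

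Adamts1 had 105 scaled CPM in cells and 15.3 and 13.6 in nuclei, a log2 fold of 2.87 (SE 0.30, adjusted p = 0.0044). Adamts4 had 7.85 against 0.183 and 0.436 (log2 fold 4.64, or 5.37 without nuclei 2). Adam15 had 64.4 against 14.9 and 19.6 (log2 fold 1.90) and Adam8 23.9 against 4.70 and 8.75 (log2 fold 1.83). The cells lay above both nucleus libraries in each case.

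Lower in cells were Adam19, with 62.6 scaled CPM against 341 and 237 (log2 fold -2.21, SE 0.44, adjusted p = 0.017), and Adam22, with 46.3 against 112 and 139 (log2 fold -1.44). Adam28 had 1.56 against 17.8 and 50.02, a log2 fold of -4.43 that was -3.52 without nuclei 2. Adam7 had 0.632 against 11.6 and 9.52 (log2 fold -4.05) and Adamts15 12.3 against 39.1 and 52.9 (log2 fold -1.90). Adam1b had 0.241 against 4.29 and 2.81 (log2 fold -3.86). AT2 barcodes, the leading class of Adam19 and Adam7, made up 4.05% of cells and 19.9% and 16.5% of nuclei 1 and 2. The club class, the leading class of Adam28 in nuclei, was not named in cells and made up 2.04% and 10.2% of nuclei.

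The inhibitors and main sheddases did not pass. Timp2 had 248 scaled CPM in cells and 123 and 120 in nuclei (log2 fold 1.03, adjusted p = 0.062), and Timp1 2.47 against 0.734 and 1.01 (log2 fold 1.498, adjusted p = 0.14). Timp3 had 57.0 against 76.9 and 32.8, so the nucleus libraries lay on either side of the cells. Timp4 had 1.504 against 3.16 and 3.22 (log2 fold -1.08, adjusted p = 0.22). Adam10 had 170 against 181 and 177 (log2 fold -0.08, SE 0.34, adjusted p = 0.88) and Adam17 98.6 against 61.1 and 73.4 (log2 fold 0.55, adjusted p = 0.24).

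Genes around these enzymes were read from 3 fixed lists, beside the same 16.4% of all genes higher in cells and 8.42% lower. Of 33 genes that activate or restrain metalloproteases, 30 were tested, of which 9 were higher in cells and 1 lower, with a median log2 fold of 0.28. They included the urokinase receptor Plaur (201 scaled CPM in cells against 36.7 and 19.3, log2 fold 2.85) and the proprotein convertase Furin (141 against 40.4 and 42.3, log2 fold 1.77). Reck, a membrane-anchored inhibitor of Mmp enzymes, was lower (18.7 against 82.1 and 48.7, log2 fold -1.81). Of 21 genes whose products these enzymes cut, 20 were tested, with 9 higher, 3 lower and a median of 0.96. Tnf was at 30.6 against 0.330 and 1.24 (log2 fold 5.27) and Hbegf at 42.5 against 6.02 and 12.5 (2.20), while Egfr was at 31.2 against 121 and 121 (-1.95). Of 18 related metalloproteases and Adamts-like genes, 17 were tested, with 2 higher, 5 lower and a median of -0.54. Mep1a, the meprin alpha subunit, was at 43.4 against 0.330 and 0.536 (log2 fold 6.63), and Bmp1, a procollagen C-proteinase, at 38.5 against 159 and 225 (-2.32).

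The same comparison was made within each of the 16 classes, on counts summed per class and library. Over 465 member-by-class tests 115 passed, 64 higher in cells and 51 lower, in 37 members. Over all genes and classes 22.7% of tests passed, 14.8% higher and 7.9% lower. How many of all genes had at least 1 call, as the 37 members did, was not counted. DESeq2 called 37 of the 115, 23 of them higher and 14 lower, where it called 9.72% of its tests over all genes. Without TMM the split was 53 higher and 55 lower, and the median of all genes in a class ranged from -0.54 in dendritic to 0.18 in AT1. Each fit has 1 residual degree of freedom and assumes that the lone cell library would vary as the nuclei do.

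**Figure D3:**
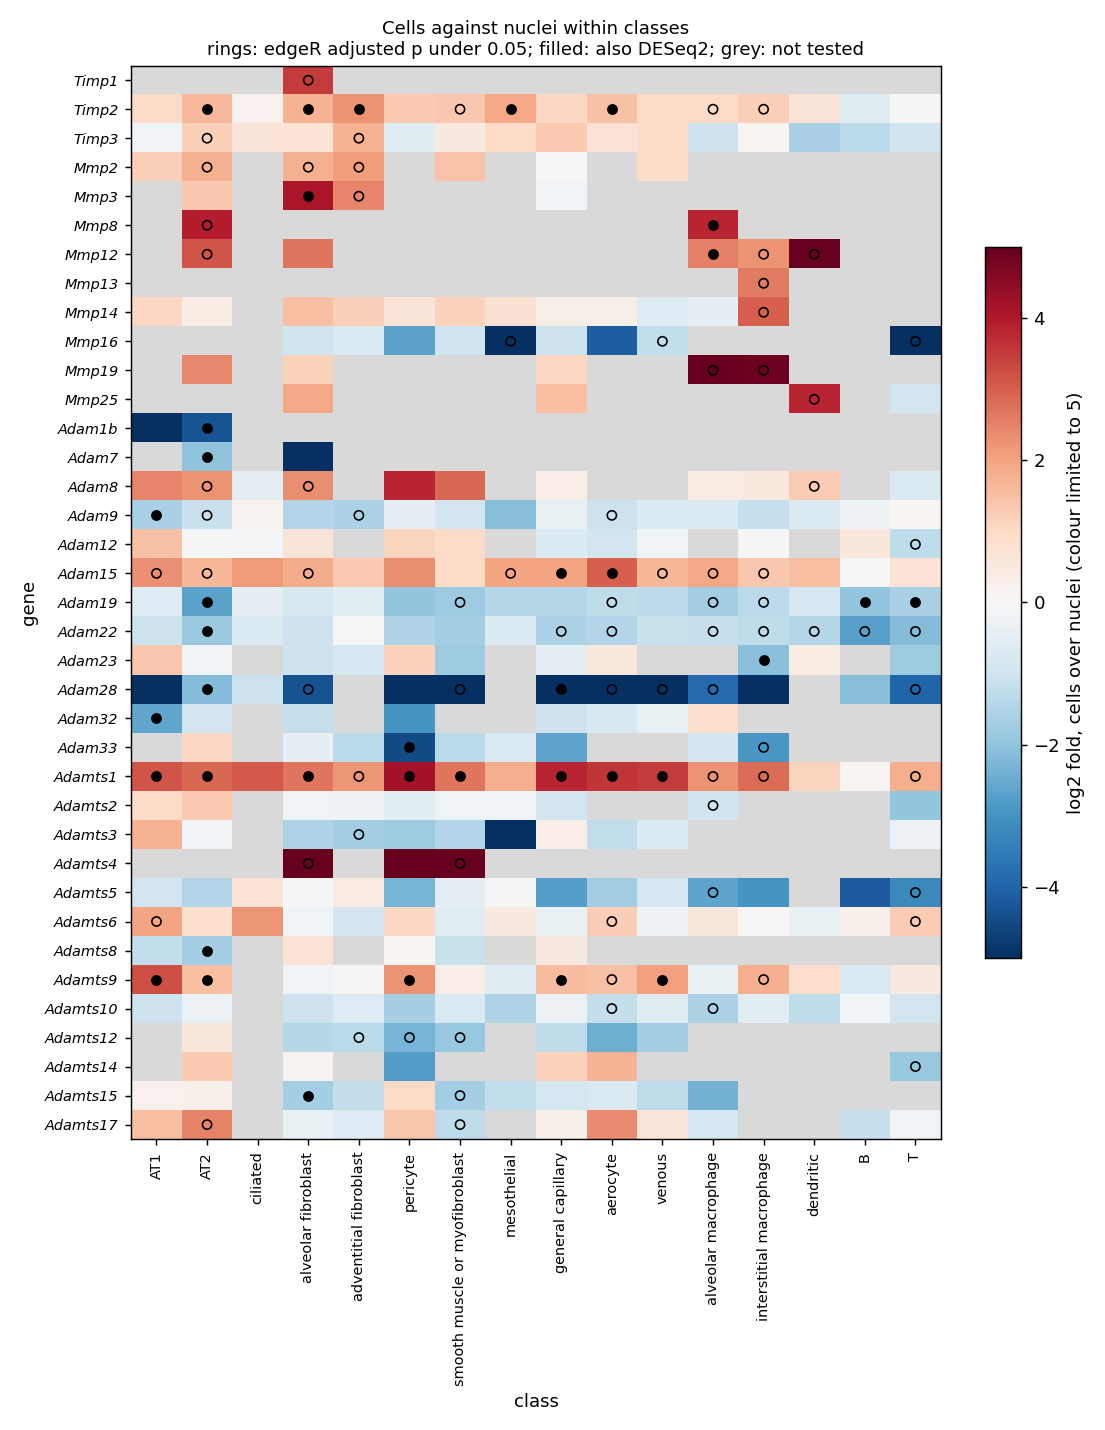
Log2 fold of cells over nuclei within classes for the 37 members with at least 1 call. Rows are genes, columns classes, red is higher in cells, blue lower and grey not tested; rings mark an edgeR adjusted p under 0.05 and filled circles a DESeq2 call as well. Adamts1 carries calls in 12 of 16 classes, all higher, and Adam28 in 8 of 13, all lower.

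Beside each class count stands, in parentheses, the share of all genes tested in that class that passed in the same way. In AT1, 31 members were tested and 6 passed (22.5% of all genes), 4 higher (14.9%) and 2 lower (7.61%). In AT2, 43 members were tested and 17 passed (36.3% of all genes), 10 higher (20.7%) and 7 lower (15.5%). For ciliated barcodes, 18 members were tested and 0 passed (22.0% of all genes), 0 higher (13%) and 0 lower (9.02%). The 2 alveolar classes thus lay near their backgrounds. Of the ciliated members, 6 had an unadjusted p under 0.05 in edgeR, 1 passed without TMM, 6 of 62 passed without the count filter, and DESeq2 called 0 of 10.

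Among alveolar fibroblasts, 50 members were tested and 10 passed (17.5% of all genes), 8 higher (12.9%) and 2 lower (4.62%). In adventitial fibroblasts, 25 members were tested and 8 passed (18.5% of all genes), 5 higher (14.8%) and 3 lower (3.67%). In pericytes, 35 members were tested and 4 passed (6.26% of all genes), 2 higher (5.13%) and 2 lower (1.13%). DESeq2 shared 4 of the alveolar fibroblast, 1 of the adventitial and 3 of the pericyte calls. For smooth muscle or myofibroblasts, 30 members were tested and 8 passed (21.4% of all genes), 3 higher (13.3%) and 5 lower (8.06%). For mesothelial barcodes, 21 members were tested and 3 passed (16.2% of all genes), 2 higher (11.5%) and 1 lower (4.75%).

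In the 3 endothelial classes calls went both ways. In general capillaries, 45 members were tested and 5 passed (18.3% of all genes), 3 higher (12.7%) and 2 lower (5.59%). In aerocytes, 28 members were tested and 10 passed (26.2% of all genes), 5 higher (16.9%) and 5 lower (9.35%). In venous barcodes, 26 members were tested and 5 passed (19.6% of all genes), 3 higher (14.1%) and 2 lower (5.43%).

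Among leukocytes, members higher in cells were most frequent in interstitial macrophages. There, 25 members were tested and 12 passed (25.1% of all genes), 8 higher (16.2%) and 4 lower (8.94%), and DESeq2 shared 1 of the 12. In alveolar macrophages, 26 members were tested and 12 passed (39.9% of all genes), 6 higher (25.0%) and 6 lower (14.9%). In dendritic barcodes, 19 members were tested and 4 passed (27.6% of all genes), 3 higher (19.5%) and 1 lower (8.1%), and DESeq2 shared none of the 4. Most dendritic cells (425 of 651) were in a cluster led by Ccl22, Cd209a and Mgl2 and the other 226 in one whose leading genes included Gm36723, Sept3, Htr7 and Xcr1, while all dendritic nuclei were in a single cluster led by Gm36723 and Htr7. The mix of dendritic clusters thus differed between cells and nuclei, and its part in the calls of Mmp12, Mmp25, Adam8 and Adam22 was not tested. In B cells, 18 members were tested and 2 passed (18.3% of all genes), 0 higher (11.0%) and 2 lower (7.34%). In T cells, 25 members were tested and 9 passed (23.2% of all genes), 2 higher (14.1%) and 7 lower (9.11%), and DESeq2 shared 1 of the 9.

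Adamts1 was higher in cells in 12 of the 16 classes, and 12.4% of the genes tested in all 16 did so in at least 12. In general capillaries it had 326 scaled CPM against 15.9 and 31.3 (log2 fold 3.82, SE 0.44, adjusted p = 0.00073). Pericytes had 154 against 6.01 and 12.2 (log2 fold 4.18, or 3.58 without nuclei 1), venous barcodes 254 against 17.7 and 28.3 (3.50), and aerocytes 102 against 6.83 and 10.6 (3.58). In AT2 the values were 148 against 17.5 and 23.5 (2.86), in AT1 69.0 against 11.8 and 5.09 (3.13, or 3.78 without nuclei 1) and in smooth muscle or myofibroblasts 390 against 82.6 and 29.0 (2.68, or 3.69 without nuclei 1). DESeq2 called all 7 of these classes. In adventitial fibroblasts (212 against 53.8 and 36.5, log2 fold 2.20) and interstitial macrophages (80.1 against 9.45 and 14.1, 2.78) DESeq2 did not.

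Adam15 was higher in 9 of 16 classes, which 17.0% of such genes matched. Its values were 120 scaled CPM against 24.0 and 37.6 in general capillaries (log2 fold 1.98), 62.3 against 3.79 and 12.97 in aerocytes (log2 fold 3.0, or 2.21 without nuclei 1 and 3.96 without nuclei 2), 192 against 54.4 and 68.6 in venous (1.66), 41.1 against 4.98 and 10.7 in AT1 (2.29, or 3.08 without nuclei 2) and 95.9 against 17.3 and 28.9 in mesothelial barcodes (1.96, or 2.57 without nuclei 2). The general capillary and aerocyte calls were shared with DESeq2. Another transcript, 4731419I09Rik, overlaps Adam15 on the opposite strand.

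Adamts9 was higher in 7 of 15 classes (18.3% of genes tested in at least 15 did so). It had 92.0 scaled CPM against 5.60 and 12.98 in AT1 (log2 fold 3.20, or 4.08 without nuclei 2), 497 against 140 and 96.9 in venous (2.06), 269 against 47.1 and 67.0 in pericytes (2.25) and 188 against 62.2 and 73.1 in aerocytes (1.48). In alveolar fibroblasts, its leading class in nuclei, Adamts9 was not called. DESeq2 shared the AT1, venous and pericyte calls but not that in aerocytes.

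Timp2 was higher in 8 of 16 classes, matched by 18.4% of such genes. It had 1246 scaled CPM against 289 and 231 in adventitial fibroblasts (log2 fold 2.26, SE 0.44, adjusted p = 6.4e-06) and 1308 against 296 and 387 in mesothelial barcodes (1.93, SE 0.35, adjusted p = 0.0011), both shared with DESeq2. The 8 markers of adventitial fibroblasts, all detected each time, were also higher in cells of that class, at a sum of 8321 CPM against 1550 and 2386 CPM in nuclei, and the part of this in the calls there was not tested. Timp3 was called in AT2 (81.1 against 49.3 and 20.4, log2 fold 1.21, which was 1.99 without nuclei 1) and in adventitial fibroblasts (332 against 142 and 54.7, log2 fold 1.72, which was 2.47 without nuclei 1 and 1.06 without nuclei 2), and neither was shared with DESeq2. Timp1 was called in alveolar fibroblasts, the single class where it was tested, with 15.9 against 0.943 and 1.74 (log2 fold 3.51), and DESeq2 did not call it.

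**Figure D4:**
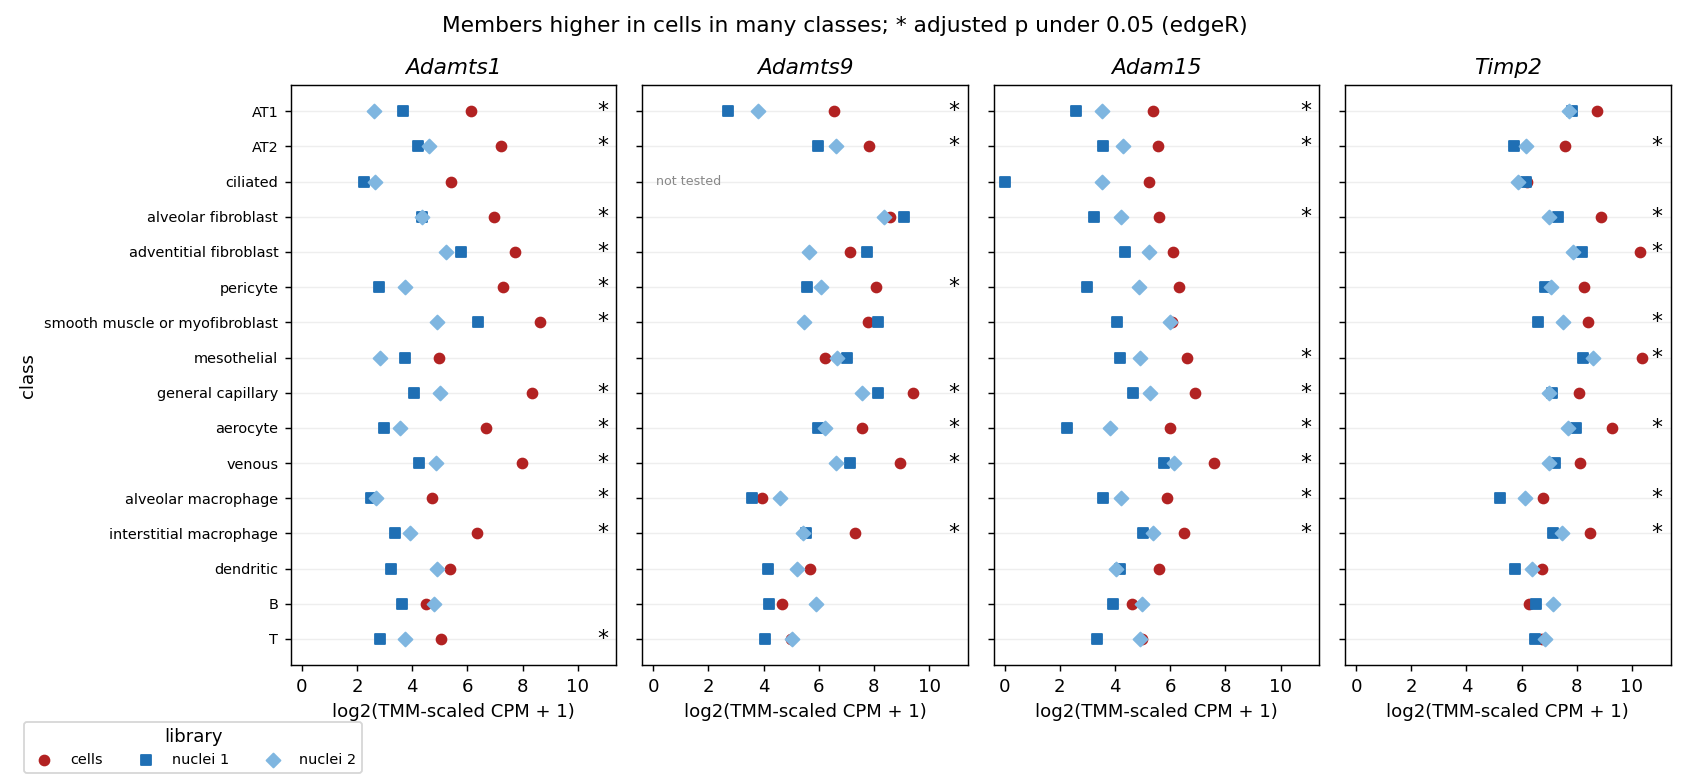
Levels of Adamts1, Adamts9, Adam15 and Timp2 in each class. The horizontal axis is log2 of scaled CPM plus 1, each row a class, and the points are the 3 libraries; asterisks mark an edgeR adjusted p under 0.05. Asterisks stand in 12 classes for Adamts1, 7 for Adamts9, 9 for Adam15 and 8 for Timp2, each time with the cells to the right of both nucleus libraries.

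Of 18 Mmp genes tested in at least 1 class, 8 were called higher in cells in some class, Mmp16 was called lower in 3, and 9 had no call, among them Mmp9, Mmp11, Mmp15, Mmp23 and Mmp28. Over all gene-by-class tests 14.8% passed higher and 7.9% lower. The share of all genes with a call in at least 1 class, the like background for these counts, was not computed. The 8 called higher were Mmp2, Mmp3, Mmp8, Mmp12, Mmp13, Mmp14, Mmp19 and Mmp25. Of those in the cluster on chromosome 9, Mmp3, Mmp12 (in 1 of its 2 windows) and Mmp13 held TGANTCA in their promoter windows and Mmp8 did not. Mmp1b, Mmp10 and Mmp20 also held it and had no test within a class. In alveolar fibroblasts Mmp3 had 118 scaled CPM in cells against 5.03 and 8.71 (log2 fold 4.09, SE 0.41, adjusted p = 0.001), shared with DESeq2. In adventitial fibroblasts Mmp3 had 496 against 29.3 and 158, a log2 fold of 2.45 that was 1.52 without nuclei 1 and 3.90 without nuclei 2, and Mmp2 had 292 against 68.5 and 66.9 (2.10). DESeq2 called neither there, with 54 and 55 nuclei. The lower sum of adventitial markers in nuclei, given with Timp2, applies to these calls too. Adventitial fibroblasts could not be compared at the finer clustering.

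Adamts4 had 54.6 scaled CPM against 0 and 1.74 in alveolar fibroblasts, on 124, 0 and 6 counts. Its log2 fold of 5.86 was 4.93 without nuclei 1, the library with no count, and 10.2 without nuclei 2, where no nucleus count remains and the value is no measure of size, and DESeq2 did not call it. In smooth muscle or myofibroblasts it had 81.3 against 0 and 0. With 39 counts in cells and none in nuclei it was at least 18.6-fold higher, against a floor of 3 counts over both nucleus libraries, and DESeq2 gave it no adjusted p. Adventitial markers summed to 444 CPM in that class in cells and to 191 and 295 CPM in nuclei, with 6 of 8 detected in each and Cd248 at 0 in all 3, and their part was not tested.

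In macrophages, Mmp19 had 136 scaled CPM in alveolar macrophage cells against 0 and 5.45, on 783, 0 and 8 counts, with a log2 fold of 5.20 (adjusted p = 3.2e-08) that was 4.60 without nuclei 1. Without nuclei 2 no nucleus count remains, so the fitted 11.8 is no measure of size. The transcripts Gm47093 and Tmem198b overlap Mmp19 on the opposite strand, and the strand setting of the counting was not given. At the finer clustering Gm47093 was the first leading gene of a cluster of alveolar macrophage cells. The part of this overlap in the Mmp19 counts was not tested. Mmp8 had 34.6 against 4.71 and 1.36 (log2 fold 3.79, or 4.60 without nuclei 1 and 2.78 without nuclei 2), and this call was shared with DESeq2 while that of Mmp19 was not. The 9 alveolar macrophage markers, all detected, summed to 11086 CPM in cells of the class and to 4443 and 1991 CPM in nuclei, and the part of this was not tested. Neutrophil markers summed to 119 CPM in alveolar macrophage cells and to 76.9 and 121 CPM in the nuclei (Il1r2 and Retnlg at 0 in nuclei 1), a range in which the nucleus libraries lay on both sides of the cells. In interstitial macrophages Mmp14 had 90.4 against 10.8 and 12.1 (log2 fold 2.97), and Mmp12 had 185 against 54.0 and 22.1 (2.23, or 3.04 without nuclei 1), neither shared with DESeq2. Mmp13 had 43.1 against 10.8 and 2.01 (2.59, or 4.25 without nuclei 1 and 1.98 without nuclei 2), and DESeq2 gave it no adjusted p. Mmp19 there had 15 counts in cells and 1 in nuclei, a ratio of 32.6 (95% counting interval 5.01 to 1371), and its log2 fold of 4.89 was 3.77 without nuclei 1 and 7.25 without nuclei 2, where again no nucleus count remains. The interstitial macrophage markers summed to 4564 CPM in cells and to 794 and 827 CPM in nuclei, and the part of this difference was not tested.

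In dendritic barcodes Mmp12 had 67 counts in cells and none in nuclei, at least 7.05-fold higher against the same floor. These counts came from 20 of 651 cells and 32 of them from 1 cell. The interstitial macrophage markers summed to 480 CPM in dendritic cells and to 71.3 and 189 CPM in dendritic nuclei (8 of 8 detected in cells and 6 of 8 in each nucleus library, with Folr2 at 0 in both), and their part was not tested. Mmp25 had 67 counts in cells and 2 in nuclei, a ratio of 10.6 (95% counting interval 2.81 to 89.1). DESeq2 gave Mmp12 and Mmp25 no adjusted p there. Adam8 was called as well (145 scaled CPM against 59.3 and 59.8, log2 fold 1.28), but not by DESeq2 or at the finer clustering. In AT2, Mmp8 (11, 0 and 4 counts, log2 fold 3.94, or 2.84 without nuclei 1) and Mmp12 (9, 3 and 3 counts) were called on low counts that DESeq2 left without an adjusted p. Alveolar macrophage markers summed to 552 CPM in AT2 cells against 107 and 86.1 CPM in AT2 nuclei, and neutrophil markers to 551 CPM against 71.5 and 214 CPM. The part of these in the Mmp8 and Mmp12 calls was not tested.

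Among members lower in cells, Adam19 was called in 7 of 16 classes, which 7.0% of the genes tested in all 16 matched. In AT2, its leading class, it had 193 scaled CPM against 1347 and 1107 (log2 fold -2.67, SE 0.49, adjusted p = 0.0012). In B cells it had 80.5 against 312 and 321 (-1.98) and in T cells 122 against 376 and 367 (-1.60), and DESeq2 shared all 3. In alveolar macrophages (12.7 against 22.0 and 56.5) its log2 fold of -1.71 was -0.87 without nuclei 2. Adam22 was called in 8 of 16 classes (5.6% of genes did so). It had 84.3 against 325 and 293 in AT2 (log2 fold -1.87), which DESeq2 shared, and 9.84 against 25.8 and 102 in B cells (-2.73, or -3.44 without nuclei 1 and -1.47 without nuclei 2), 57.1 against 169 and 138 in dendritic barcodes (-1.42) and 11.2 against 27.3 and 41.4 in general capillaries (-1.60), which it did not. In ciliated barcodes, where Adam22 was highest, no difference was called.

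Adam28 was lower in cells in 8 of 13 classes, where 5.11% of genes tested in at least 13 classes were. In general capillaries it had 0 counts in cells and 55 and 37 in nuclei, at least 12.4-fold lower against the floor, a call shared with DESeq2. In AT2 it had 6.39 scaled CPM against 29.7 and 28.2 (log2 fold -2.17), also shared. In aerocytes it had 1 count in cells against 13 and 17, which put nuclei 34.8-fold above cells (95% counting interval 5.79 to 1421), and in alveolar fibroblasts 1 against 23 and 42. In T cells it had 1 against 9 and 17, with a log2 fold of -4.01 that was -4.64 without nuclei 1. Counts of 0 in venous and in smooth muscle or myofibroblast cells gave values at least 3.97-fold and 5.12-fold lower. The fitted log2 fold in the latter, -6.55, was -7.16 without nuclei 2, and with 0 counts it is no measure of size. Over these 8 classes the club markers, the markers of its leading class in nuclei, summed to 926 to 3591 CPM in cells and to 14234 to 23256 CPM and 14465 to 26768 CPM in nuclei 1 and 2, with 5 to 8 of the 8 detected in cells and Muc5b, Gabrp or Scgb3a1 at 0 in some. Their part in the Adam28 calls was not tested.

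**Figure D5:**
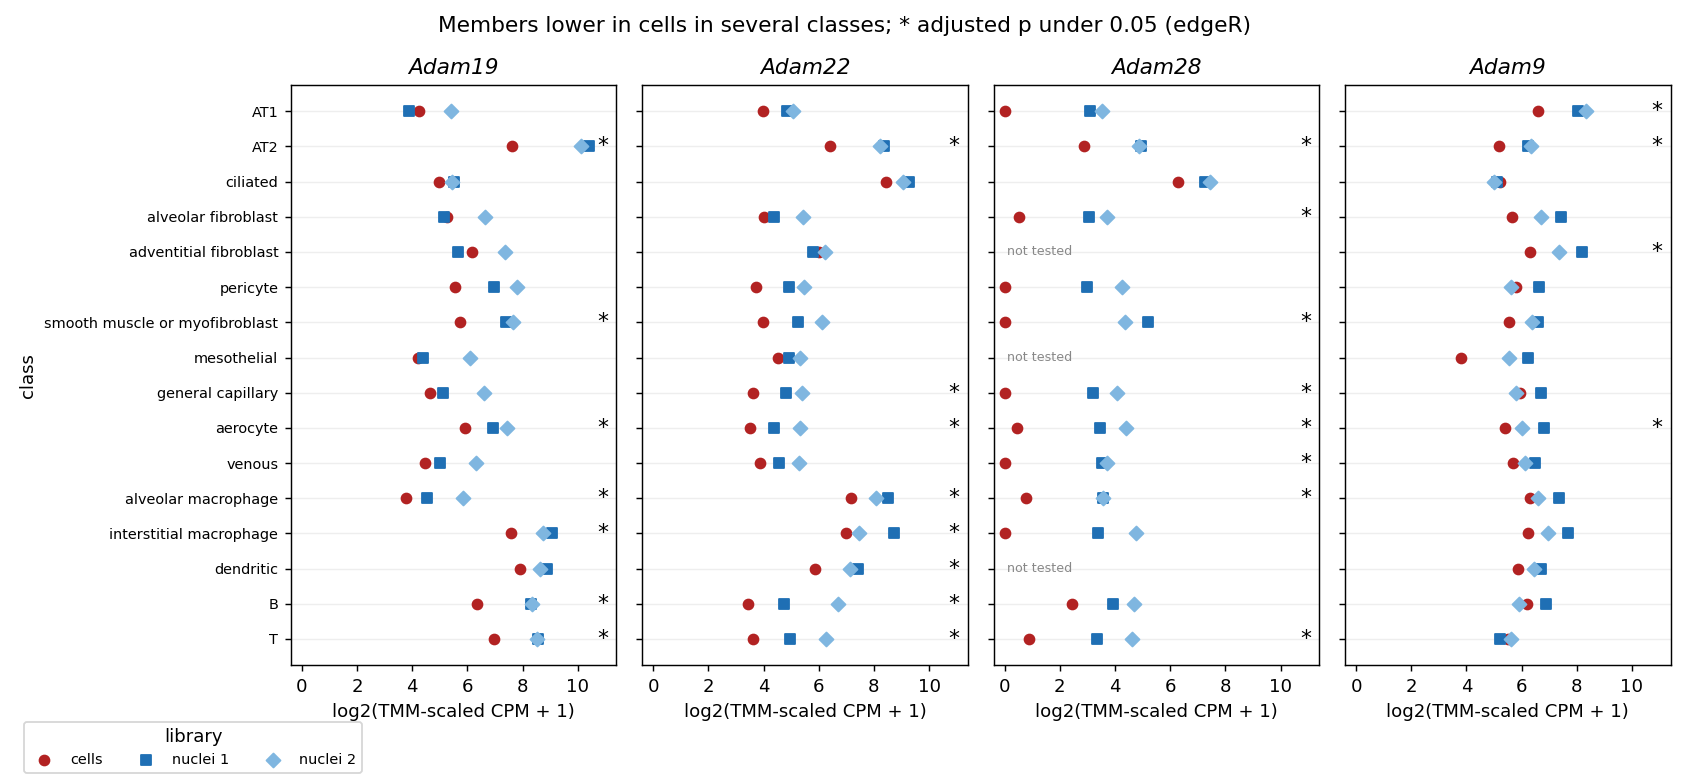
Levels of Adam19, Adam22, Adam28 and Adam9 in each class, drawn as for the genes higher in cells. Asterisks stand in 7, 8, 8 and 4 classes, each with the cells to the left of both nucleus libraries, and Adam19 in AT2 lies at 193 scaled CPM in cells against 1347 and 1107 in nuclei.

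Further members were lower in single classes. Adam32 had 9.86 scaled CPM in AT1 cells against 58.5 and 62.3 (log2 fold -2.61), shared with DESeq2. Adam1b in AT2 had 1 count in cells against 90 and 44, a ratio of 21.3 in favour of nuclei (95% counting interval 3.76 to 848). Adam33 had 2 counts in pericyte cells against 30 and 14, a ratio of 22.0 (95% counting interval 5.75 to 188), and in interstitial macrophages 3 counts against 36 and 23. Adamts12 was lower in pericytes (17.7 against 91.2 and 87.3, log2 fold -2.33) and smooth muscle or myofibroblasts (85.5 against 261 and 391, -1.91), without a DESeq2 call. None of the 4 pericyte calls held at the finer clustering, where the edgeR adjusted p of each was 0.14. No gene at all passed in that fit (0 of 11562 tested), so the loss is not particular to these members.

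Some of the lower calls rested largely on 1 nucleus library, and others on low counts. Mmp16 in the T class had 0.867 scaled CPM in cells against 610 and 2.74, so nuclei 2 lay near the cells and nuclei 1 far above both. The log2 fold was -8.27, or -9.32 without nuclei 2, and without nuclei 1 its counts were too low to pass the count filter. DESeq2 did not call it, and at the finer clustering the adjusted p was 0.055. Adamts14 in the T class had 14.7 against 83.4 and 24.6, a log2 fold of -1.89 that was -0.83 without nuclei 1 and -2.54 without nuclei 2. NK markers in that class summed to 321 CPM in cells and to 231 and 130 CPM in nuclei, with all 7 detected in each, and no NK class was named in nuclei. In adventitial fibroblasts, Adamts12 (127 against 122 and 529) had a log2 fold of -1.33 that was -0.11 without nuclei 2 and -2.18 without nuclei 1, and Adamts3 (42.4 against 230 and 42.6) one of -1.71 that was -0.13 without nuclei 1 and -2.59 without nuclei 2. On low counts present in both nucleus libraries, Mmp16 in mesothelial barcodes had 0 counts in cells against 22 and 23, at least 2.60-fold lower. Adamts5 was called lower in alveolar macrophages (10 counts against 7 and 16) and T cells (2 counts against 9 and 19, log2 fold -3.22, or -3.90 without nuclei 1).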

How the data were processed

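The authors deposited UMI counts per gene and barcode, 1 table of cells and 1 of nuclei. The table of cells names no sample in its columns and was taken as the single cell library; prefixes name the nucleus libraries. The build mm10 and the aligner STAR 2.5.3a are named per the submitters' processing notes. For the counting program, introns, annotation and strand, settings were not given in the sources used here. A barcode needed 400 genes and a mitochondrial share below 20%. Scrublet marked 1.18% of nuclei 1, which were removed, and under 0.5% of the other libraries, which were not. Cells and nuclei were clustered separately with scanpy 1.11.5 (2000 variable genes without members, 30 components, 20 neighbours, Leiden resolution 1), and clusters were named where at least 3 fixed markers were 2-fold higher and in 10% of barcodes. Counts were summed per library and class and tested with edgeR 4.0.16 (quasi-likelihood, TMM, filterByExpr, Benjamini-Hochberg over all genes tested); a call is an adjusted p under 0.05. DESeq2 1.42.0, library totals without TMM, no count filter, at least 800 genes a barcode, Leiden resolution 2, thinning to 500 counts and leaving out each nucleus library were alternatives. Library totals were 27148272 to 35962788 counts, which limits the precision of low genes. On data simulated from the whole libraries (19404 genes tested), edgeR recovered 8% of 2-fold, 84% of 4-fold, 94% of 8-fold and 86% of 16-fold changes, 50 genes each, with 2 false calls. All simulated libraries had the same fixed spread and only these genes were changed, while 24.9% of the real genes passed. The recovery and false calls hold for that setting alone. They cannot test whether the cell library varies as the nuclei do, because the simulation assumed it. Members and lists were chosen with earlier results of these data known. The text names, over whole libraries, each called member; across classes, members reaching 20 CPM, in full those reaching 100 CPM in 2 libraries, the Timp genes, Adam10 and Adam17; and within classes up to 4 called members by size of fold. Further within-class calls were named after their values were seen.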

Additional observations from a re-analysis of the deposited data

Results flagged for a closer look

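Adamts17 moved in opposite directions between cells and nuclei in 2 classes. In AT2 it was higher in cells, with 19.2 scaled CPM against 1.82 and 5.21 in nuclei (log2 fold 2.47, adjusted p = 0.01), on 30, 10 and 22 counts. In smooth muscle or myofibroblasts, which together with alveolar fibroblasts lead this gene, it was lower in cells, with 229 against 429 and 701 (log2 fold -1.29, adjusted p = 0.019). The AT2 fold was 1.87 without nuclei 1 and 3.37 without nuclei 2. In each class both nucleus libraries lay on the same side of the cells. The difference between the classes was not tested. Neither call was shared with DESeq2, and the AT2 call did not hold at Leiden resolution 2 (adjusted p = 0.36). Markers of alveolar fibroblasts summed to 1726 CPM in AT2 cells and to 1500 and 1367 CPM in AT2 nuclei, and their part was not tested.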

How the results depend on the processing

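Over whole libraries the 16 calls became 19 with DESeq2 (29.3% of all genes tested) and 14 without TMM (19.5%). They became 17 without the count filter (24.1%) and 16 with at least 800 genes a barcode (24.9%). Within classes, the 115 calls became 37 with DESeq2, 108 without TMM, 154 without the filter and 98 at Leiden resolution 2. Of the 115, 87 still passed without TMM, 98 without the filter and 86 at resolution 2, so these totals also hold new calls. Adventitial fibroblasts could not be compared at resolution 2. DESeq2 gave 66 of the 115 an adjusted p above 0.05 and the rest of those not shared no adjusted p. Timp3 over whole libraries, not called, changed sign without TMM (-0.082, against 0.06), and the cause was not tested. Leaving out a nucleus library gives folds with no test, since no residual degrees of freedom remain. By over 1.5 times moved 3 of the whole-library and 33 of the within-class calls, and no fold that could be computed changed sign. Some within-class calls fell below the count filter without 1 of the nucleus libraries, so they had no such fold and their sign could not be checked. The count of members with the same leading class was 21, and 24 at resolution 2. Thinned to 500 counts, the shares were 33.0% for Timp2 and 12.7% for Mmp3 in adventitial cells, 4.57% for Mmp12 in interstitial macrophages, 12.03% for Mmp9 in neutrophils, 42.7% for Adam19 in AT2 nuclei of nuclei 1 and 23.4% for Adamts9 in general capillary cells, lower because fewer counts were kept. No paired analysis was possible because cells and nuclei share fewer than 2 replicate numbers. In the simulation of whole libraries 8% of 2-fold changes were recovered; recovery within classes was not simulated.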
